A study of Mus musculus with 6 samples.

Results

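The genes described here are 10 components of tumour necrosis factor (TNF) receptor signalling and of necroptosis in mouse small-intestinal stem cells. They were taken by symbol from 23127 genes in the table: Tnfrsf1a, Tnfrsf10b, Tradd, Fadd, Casp8, Cflar, Ripk1, Ripk3, Mlkl and Zbp1. All 10 were present, and all 10 had a mean of at least 10 scaled counts, the filter for testing. Cells with high GFP from the Lgr5-GFP reporter, which marks the R-spondin receptor gene of crypt base stem cells, had been collected by sorting, from small intestines of mice on C57BL/6. The IFNg group (3 libraries, named by the end numbers of their titles as IFNg 6, 2 and 10) was kept for 1.5 h with 1 ng/ml interferon gamma, the medium containing EGF, Noggin and R-spondin1. The untreated group (3 libraries, untreated 5, 1 and 9) is labelled as having no treatment, its titles carry the same 1.5, and whether it stood in medium is not stated. Titles also carry a tag of unstated meaning, GFP1 for IFNg 6 and untreated 5 and GFP3 for the other 4 libraries. The ages and sexes of the mice, and whether the libraries came from separate animals, are not given in the labels, so the p-values reflect library-to-library spread alone, which may be technical.

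TNF binds the receptor encoded by Tnfrsf1a, whose death domain recruits the adaptor Tradd and the kinase Ripk1 into a first complex that drives NF-kB and survival. When that complex is dismantled, Ripk1 can join Fadd, caspase 8 and its catalytically inactive relative Cflar (cFLIP) in a second complex. There caspase 8 starts apoptosis, or, held in check by cFLIP, cleaves Ripk1 and Ripk3 and so blocks necroptosis. Where caspase 8 is not active, Ripk1 or the nucleic acid sensor Zbp1 engages Ripk3 through shared RHIM motifs, and Ripk3 phosphorylates Mlkl, which then breaks the plasma membrane. In the gut epithelium loss of caspase 8 or Fadd is known to cause necroptotic death of crypt cells. Promoters of genes that respond to interferon gamma can carry GAS elements (TTCNNNGAA) and IRF elements.

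The libraries held 28508762 to 40224497 reads in genes. The lowest member value was 98 reads, for Zbp1 in untreated 5. Values are scaled counts, that is reads divided by 1 size factor per library. The crypt base stem cell list (8 genes, led by Olfm4) summed to 277602 to 282591 in the IFNg libraries and 264692 to 300875 in the untreated libraries. Olfm4 made up most of each sum. Of the 8 genes 0 passed in limma, and their mean ratios of IFNg to untreated ran from 0.750 (Lgr5) to 2.20 (Smoc2). Of the T and NK cell markers 5 of 8 were in the table, and they summed to 27.3 to 49.2 in the IFNg libraries and 28.4 to 48.4 in the untreated libraries. The myeloid markers (6 of 7 in the table) summed to 282 to 380 in the IFNg libraries and 284 to 414 in the untreated libraries, so the groups overlapped in both lists. Paneth cell markers were present (15240 to 135601 in the IFNg libraries, 59147 to 231601 in the untreated libraries). All 6 had log2 changes below 0, as did 9184 of 16095 tested genes, and 0 of the 6 passed in limma. IFNg 6 was the lowest library for each of the 6, so they are not separate observations. Goblet markers summed to 75755 to 147555 in the IFNg libraries and 65437 to 227107 in the untreated libraries. Immediate early and heat shock genes (9, among them Egr1, Jun and Hspa1a), which respond to handling and to growth factors, summed to 111798 to 187038 in the IFNg libraries and 90473 to 100875 in the untreated libraries, without overlap. Singly, the groups stood apart for Jun, Junb and Egr1 and overlapped for the others, Hspa1a included. In the main limma fit 0 of the 9 passed. Egr1 and Jun were higher in DESeq2 (adjusted p = 0.00108 and 0.0195), and in limma on the GFP3 libraries alone (0.00237 and 0.00228). The other genes of this list passed in neither. Those 2 fits called 3.22% and 8.27% of all genes higher. The part of the Paneth, immediate early and heat shock genes in the member results was not tested. In sorted populations fewer cells of a type and less RNA per cell cannot be told apart.

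The sequences that precede the starts of the genes that passed the test are shown first, with their matches to the GAS motif. RefSeq promoter sequences (GRCm38.p6, the mm10 assembly) were found for 7 of the 10 genes with 8 starts. Tnfrsf10b, Tradd and Zbp1 had no entry. In the 250 bases before each start, on both strands, the GAS motif TTCNNNGAA was found before 1 of 1 Tnfrsf1a starts and 1 of 2 Ripk1 starts. It was found before none of the single starts of Ripk3, Mlkl, Casp8, Fadd and Cflar, that is before 2 of 8 starts, while 7.02% of 32851 starts in the RefSeq table held it. The IRF motif (GAAA, any 2 bases, GAAA), found before 2.98% of all starts, and the kB motif, found before 7.25%, matched before 0 of 8. The motifs were searched separately, and since only GAS matched there was no overlap between motifs. A match is a description of letters and not evidence of binding, and the read counts do not tell the starts of a gene apart. The 3 matches are in capitals below, each with up to 10 bases on either side, read 5′ to 3′ on the gene's own strand.
Tnfrsf1a, chr6:125349473-125349497, plus strand: gcttccTTCCGTGAAattgacaaca
Ripk1 second start, distal match, chr13:34002756-34002784, plus strand: agaagctggtTTCCCGGAAggggcggagg
Ripk1 second start, proximal match, chr13:34002853-34002873, plus strand: acttcaaacgTTCCCGGAAat

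The Tnfrsf1a match began 244 bases before the RefSeq start, at chr6:125349479-125349487, and in GENCODE M21 it lies inside the first exon of a Tnfrsf1a transcript that starts further upstream. The Ripk1 matches have the same 9 letters, began 108 and 11 bases before the second start (chr13:34002766-34002774 and chr13:34002863-34002871), and the distal one lies in an exon of Serpinb6a on the other strand. The exon-free bases before that second Ripk1 start are printed with those before the starts of Ripk3 and Mlkl, the partners of Ripk1 in the necroptosis chain, in which none of the motifs was found.
Ripk1 second start, chr13:34002795-34002873, plus strand: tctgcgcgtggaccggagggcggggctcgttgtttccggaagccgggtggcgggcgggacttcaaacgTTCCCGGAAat
Ripk3, chr14:55788866-55788965, minus strand: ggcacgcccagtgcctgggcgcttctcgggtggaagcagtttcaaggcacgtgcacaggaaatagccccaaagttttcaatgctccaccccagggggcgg
Mlkl, chr8:111338206-111338305, minus strand: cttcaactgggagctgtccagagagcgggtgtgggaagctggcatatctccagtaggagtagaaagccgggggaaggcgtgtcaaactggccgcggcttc

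After IFNg, the main TNF receptor gene Tnfrsf1a and the kinase gene Ripk1 rose 8.65-fold and 10.0-fold. The other 8 genes did not pass the test, and 0 of 10 fell. These calls are from the fit without pairs. With the pair as a block Tnfrsf1a again passed (limma adjusted p = 0.00116), Ripk1 did not (0.120) and Mlkl did (0.0278). The sensor Zbp1 and the effector Mlkl had means 3.54 and 3.20 times the untreated means without passing, while Casp8, Tradd, Ripk3, Fadd and Cflar lay between 0.930 and 1.55 times and the death receptor gene Tnfrsf10b at 0.724 times. In limma (log2(scaled count + 1), Benjamini-Hochberg adjusted p below 0.05 over 16095 genes), 2 of 10 genes thus rose, where 0.416% of all tested genes did. None was lower (0 of 10, and 0 at an unadjusted p under 0.05), where 0.0124% of all tested genes were. EdgeR called the same 2 higher, against 0.373% of all tested genes, and 0 lower. The median log2 change was 0.68 over the 10 genes and -0.08 over all tested genes. The 10 genes were chosen with earlier results of these data known. The shares and medians given here thus describe them and do not test them as a set. In 5 of the 10 every IFNg library lay above every untreated library, which held for 8.13% of all tested genes, and in 0 of 10 every IFNg library lay below, which held for 5.06%.

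**Figure D1:**
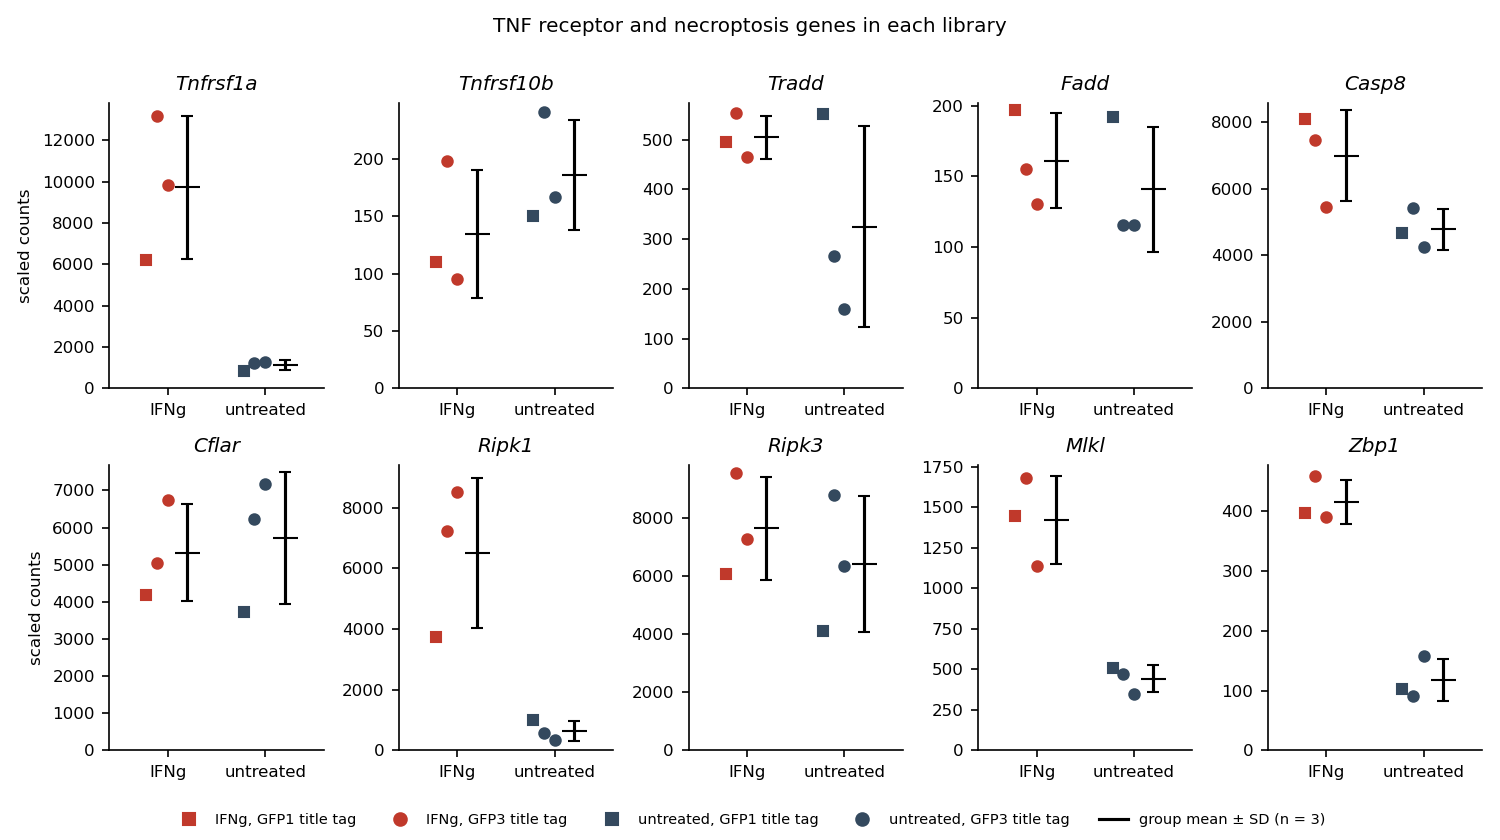
Scaled counts of the 10 genes in each library, IFNg left and untreated right, on axes that start at 0; squares are libraries with the GFP1 title tag, circles those with GFP3, and black bars give the mean ± SD of 3 libraries. The groups stand apart for Tnfrsf1a, Ripk1, Mlkl, Zbp1 and, narrowly, Casp8, and they overlap for the other 5.

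Tnfrsf1a (ENSMUSG00000030341.17, chr6:125349362-125362484 in GENCODE M21 on mm10, plus strand, protein coding) encodes the receptor through which soluble TNF acts on most cells. It had 6231, 13161 and 9826 scaled counts in IFNg 6, 2 and 10, against 846, 1239 and 1294 in untreated 5, 1 and 9. The lowest IFNg library thus stood well above the highest untreated one. The means were 9739 ± 3466 and 1126 ± 244 (SD, n = 3 each), and the log2 change was 3.07 ± 0.33 SE (95% interval 2.31 to 3.83, limma adjusted p = 0.00353). It passed in all 17 alternative fits, with adjusted p of 6.65e-15 in DESeq2 to 0.0208 without untreated 1. Within tags its log2 change was 2.88 for GFP1 (IFNg 6 minus untreated 5) and 3.17 for GFP3, so the increase was seen under both tags. Its position among all tested genes was high, since 99.5% of them had a lower log2 change.

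Tnfrsf10b (ENSMUSG00000022074.5, chr14:69767472-69784411, plus strand) encodes the mouse receptor for TRAIL, which signals death through Fadd and caspase 8. It had 110, 199 and 95.6 scaled counts in IFNg 6, 2 and 10, against 151, 241 and 167 in untreated 5, 1 and 9. The groups overlapped, although each IFNg library was below the untreated library of its pair. Its log2 change was -0.51 ± 0.39 SE (95% interval -1.40 to 0.39, limma adjusted p = 0.866).

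Among the adaptors, Tradd (ENSMUSG00000031887.13, chr8:105258286-105264609, minus strand), which links the death domain of Tnfrsf1a to Ripk1 and Traf2, had 495, 552 and 466 scaled counts in IFNg 6, 2 and 10, against 551, 266 and 159 in untreated 5, 1 and 9. The IFNg libraries lay close together and the untreated libraries did not, with untreated 5 as high as the IFNg libraries. Its log2 change was 0.82 ± 0.44 SE (95% interval -0.18 to 1.81, limma adjusted p = 0.692). By tag it was -0.16 for GFP1 and 1.30 for GFP3, where the adjusted p was 0.0556.

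Fadd (ENSMUSG00000031077.7, chr7:144577318-144582463, minus strand), the adaptor that brings caspase 8 to death receptors, had 197, 155 and 131 scaled counts in IFNg 6, 2 and 10, against 192, 115 and 115 in untreated 5, 1 and 9. In each group the GFP1 library was the highest, and the groups overlapped. For Fadd the log2 change was 0.21 ± 0.36 SE (95% interval -0.61 to 1.04, limma adjusted p = 0.931). The antisense gene Faddos overlaps 239 exonic bases of Fadd and averaged 0.935 scaled counts in the IFNg libraries and 3.44 in the untreated libraries, so it held few reads.

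Casp8 (ENSMUSG00000026029.14, chr1:58795374-58847503, plus strand), the protease that starts death receptor apoptosis and restrains necroptosis, had 8090.2, 7463 and 5449 scaled counts in IFNg 6, 2 and 10, against 4671, 5437 and 4238 in untreated 5, 1 and 9. The groups did not overlap, but the lowest IFNg library was nearly level with the highest untreated library. For Casp8 the log2 change was 0.54 ± 0.26 SE (95% interval -0.05 to 1.13), so changes from 0.964-fold to 2.18-fold lay within the interval. It did not pass in limma (adjusted p = 0.617) or in any of the 17 alternatives, of which DESeq2 gave the lowest adjusted p (0.280). The unconfirmed transcript gene Gm37760 lies within the Casp8 span on the same strand and shares 0 exonic bases with it.

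Cflar (ENSMUSG00000026031.15, chr1:58711508-58758884, plus strand), the caspase 8 partner that favours survival, had 4175, 5037 and 6748 scaled counts in IFNg 6, 2 and 10, against 3736, 6239 and 7182 in untreated 5, 1 and 9. The groups overlapped, and in both groups the GFP1 library was the lowest. The log2 change was -0.08 ± 0.32 SE (95% interval -0.81 to 0.65, limma adjusted p = 0.970), and its sign turned to 0.08 without IFNg 6, 0.01 without untreated 1 and 0.11 without untreated 9. Cflar and Casp8 are neighbours on chromosome 1. The ratio of Cflar to Casp8 per exon length was 0.118, 0.154 and 0.283 in IFNg 6, 2 and 10, against 0.183, 0.262 and 0.387 in untreated 5, 1 and 9. Each IFNg library was below its pair, and the groups overlapped.

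Ripk1 (ENSMUSG00000021408.14, chr13:34002363-34037147, plus strand) encodes the kinase and scaffold that passes the TNF signal on to NF-kB or to death. It had 3738, 7239.8 and 8514 scaled counts in IFNg 6, 2 and 10, against 1011 in untreated 5, 579 in untreated 1 and 353 in untreated 9. The groups stood apart, and the GFP1 libraries were the lowest of the IFNg group and the highest of the untreated group. The means were 6497 ± 2473 and 648 ± 334 (SD, n = 3 each), with a log2 change of 3.37 ± 0.44 SE (95% interval 2.36 to 4.38, limma adjusted p = 0.0124). It was higher in 3 of 3 pairs.

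The increase of Ripk1 passed in 13 of 17 alternatives, with adjusted p from 8.70e-10 (DESeq2) to 0.120. It did not pass with the pair as a block (adjusted p = 0.120), without IFNg 2 (0.0650), without IFNg 10 (0.0610) or without untreated 1 (0.0817), although the log2 change was 3.0 to 3.76 whichever library was left out. By pair the log2 change was 1.89 between IFNg 6 and untreated 5, 3.64 between IFNg 2 and untreated 1 and 4.59 between IFNg 10 and untreated 9. The difference between the tags was -2.23 ± 0.51 SE on the log2 scale (GFP1 minus GFP3), and the limma interaction term had an adjusted p of 0.124. At an unadjusted p under 0.05, 13.2% of all tested genes differed between the tags, and 0 passed after adjustment in limma or in edgeR, with 1 GFP1 library per group.

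The Ripk1 locus overlaps 3 other annotated genes, so part of its reads are uncertain. Serpinb6a overlaps 241 exonic bases on the opposite strand and averaged 2391 ± 314 scaled counts in the IFNg libraries and 2538 ± 542 in the untreated libraries (log2 -0.07), so its values did not follow those of Ripk1. The processed pseudogene Gm17084 lies on the same strand, with all of its 511 bases exonic in Ripk1, and had 58.8, 144 and 207 scaled counts in IFNg 6, 2 and 10, against 31.6, 20.6 and 11.3 in untreated 5, 1 and 9. Its values followed the order of Ripk1 at a small part of its level.

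Ripk3 (ENSMUSG00000022221.13, chr14:55784995-55788865, minus strand) encodes the kinase that activates Mlkl. It had 6089, 9571 and 7299.9 scaled counts in IFNg 6, 2 and 10, against 4132, 8817 and 6364 in untreated 5, 1 and 9. The groups overlapped almost fully, although each IFNg library was above its pair. For Ripk3 the log2 change was 0.29 ± 0.33 SE (95% interval -0.46 to 1.04, limma adjusted p = 0.901). The interval thus reached from 0.727-fold to 2.06-fold.

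Per exon length, Ripk1 was 0.169, 0.208 and 0.320 times the level of Ripk3 in IFNg 6, 2 and 10, against 0.0672, 0.0180 and 0.0152 times in untreated 5, 1 and 9. The groups did not overlap, so the 2 kinase transcripts were less unequal in every IFNg library. The ratio of Ripk3 to Casp8 per exon length was 0.950, 1.62 and 1.69 in IFNg 6, 2 and 10, against 1.12, 2.05 and 1.90 in untreated 5, 1 and 9, and these overlapped.

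Mlkl (ENSMUSG00000012519.14, chr8:111311797-111338177, minus strand), the pseudokinase that carries out necroptosis, had 1446, 1681 and 1137 scaled counts in IFNg 6, 2 and 10, against 509.9, 472 and 348 in untreated 5, 1 and 9. Every IFNg library stood well above the highest untreated one. The means were 1421 ± 273 and 443 ± 84.7 (SD, n = 3 each), with a log2 change of 1.68 ± 0.29 SE (95% interval 1.02 to 2.34) that missed the threshold (limma adjusted p = 0.0562). It passed in 6 of 17 alternatives. These were the fit with the pair as a block (0.0278), the title tag as a block (0.0257), the GFP3 libraries alone (0.01005), DESeq2 (1.59e-06), a pseudocount of 10 (0.0470) and the fit without untreated 5 (0.0300), and the highest adjusted p was 0.420, without IFNg 2. The pairs gave log2 changes of 1.50, 1.83 and 1.70, the narrowest spread among the 4 genes with the highest changes.

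Zbp1 (ENSMUSG00000027514.14, chr2:173206612-173218923, minus strand), a sensor of left-handed nucleic acids that can engage Ripk3 without a death receptor, had 397, 458 and 390.4 scaled counts in IFNg 6, 2 and 10, against 103, 91.2 and 158 in untreated 5, 1 and 9. The groups stood apart, and the 3 IFNg libraries were close to each other. The means were 415 ± 37.3 and 117 ± 35.4 (SD, n = 3 each), with a log2 change of 1.85 ± 0.33 SE (95% interval 1.10 to 2.60, limma adjusted p = 0.0656). It passed in 4 of 17 alternatives, namely DESeq2 (6.54e-06), the title tag as a block (0.0398), the GFP3 libraries alone (0.0182) and the fit without untreated 5 (0.0484), and the highest adjusted p was 0.461, without IFNg 2. In DESeq2 4 of the 10 genes were thus higher, against 3.22% of the 14212 genes with an adjusted p there, and 0 were lower, against 0.0563%. With the pair as a block limma called 2 higher, Tnfrsf1a and Mlkl, and 0 lower (0.46% and 0.00621% of all tested genes). With the title tag as a block it called 4 higher and 0 lower (0.671% and 0.0186%), in the GFP3 libraries alone 4 and 0 (8.27% and 0.0746%), and without untreated 5 likewise 4 and 0 (2.27% and 0.0186%).

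**Figure D2:**
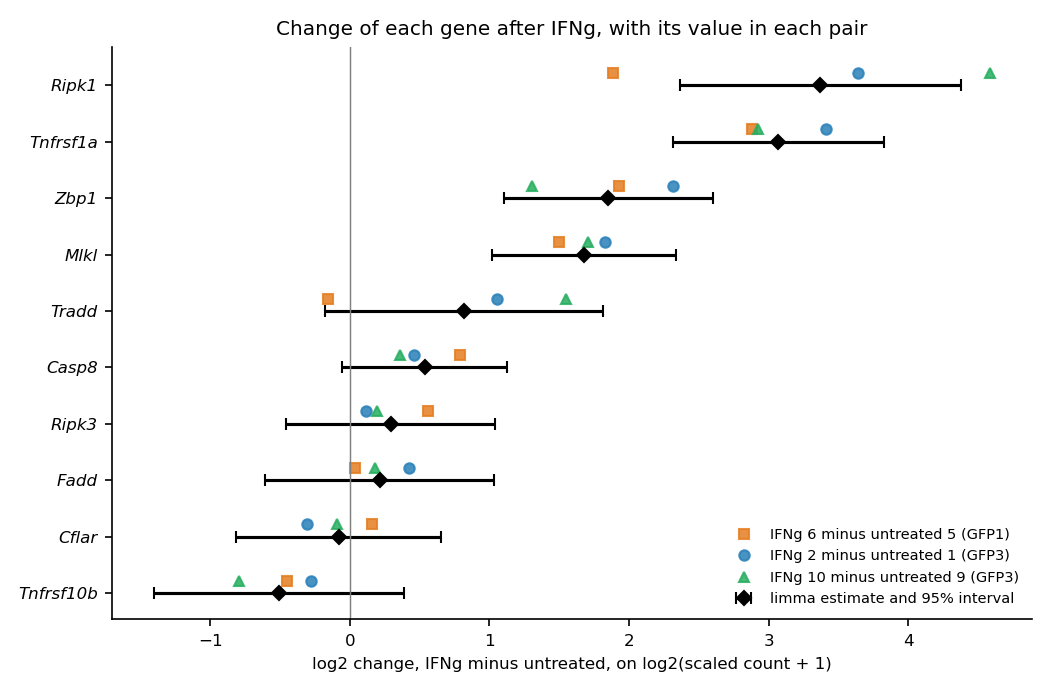
Log2 change of each gene (IFNg minus untreated, on log2(scaled count + 1)) as a diamond with its 95% interval from limma, and the difference within each pair of libraries as coloured symbols above it. Ripk1 and Tnfrsf1a lie at 3.37 and 3.07, Zbp1 and Mlkl at 1.85 and 1.68, and the intervals of the other 6 include 0; the GFP1 pair (squares) is the lowest of the 3 pairs for 5 genes, Tnfrsf1a, Ripk1, Mlkl, Fadd and Tradd.

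Per kilobase of merged exons, the order of levels differed between the groups mainly through the genes with the highest changes. In the IFNg libraries Tnfrsf1a came first (3759 scaled counts per kilobase, mean), then Ripk3 (3339), Casp8 (2420), Ripk1 (779), Mlkl (617), Cflar (419.9), Tradd (270.3), Zbp1 (118), Fadd (41.2) and Tnfrsf10b (24.7). In the untreated libraries Ripk3 came first (2809), then Casp8 (1653), Cflar (451), Tnfrsf1a (435), Mlkl (193), Tradd (174), Ripk1 (77.6), Fadd (36.1), Tnfrsf10b (34.1) and Zbp1 (33.2). Ranges of neighbours in the IFNg order overlapped except between Casp8 and Ripk1, Cflar and Tradd, Tradd and Zbp1, and Zbp1 and Fadd.

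In the untreated order the ranges of neighbours overlapped except between Casp8 and Cflar and between Tnfrsf1a and Mlkl, so the order of the lowest genes was not resolved. In the untreated libraries the levels of Ripk3 and Casp8 were thus above those of the other 8 genes. With the length of the principal transcript in place of merged exons, 8 of 10 genes kept their place in the untreated order, and Fadd and Zbp1 changed places. In the IFNg order Cflar and Mlkl changed places, as did Fadd and Tnfrsf10b. Lengths are from GENCODE M21 and the annotation used for counting is not given, so a gene with long, little-used exons, such as Cflar with 12669 merged bases, may be placed lower by merged than by principal transcript length.

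**Figure D3:**
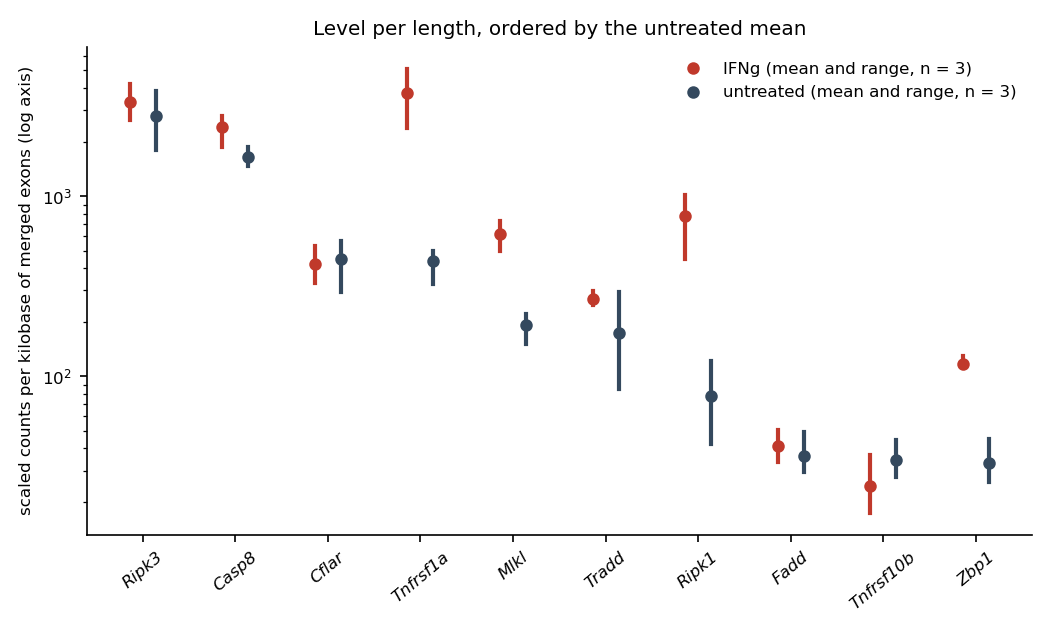
Level of each gene in scaled counts per kilobase of merged exons on a log axis, IFNg in red left of untreated in dark blue, as the mean (point) and range (line) of 3 libraries, ordered by the untreated mean. By the means, Tnfrsf1a moves to first place and Ripk1 moves up past Mlkl, Cflar and Tradd in the IFNg libraries, while Ripk3 and Casp8 are high in both groups. The IFNg range of Tnfrsf1a overlaps that of Ripk3, and the IFNg range of Ripk1 overlaps those of Mlkl and Cflar.

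The genes whose pattern over the 6 libraries was nearest to that of Tnfrsf1a and Ripk1 were sought by Euclidean distance between log2 values centred on each gene's mean, as a description of 6 libraries that share the treatment. For Tnfrsf1a, whose own distance from a flat profile was 3.87, the nearest were Csf1 (0.668), a macrophage growth factor, Dtx3l (0.755), a ubiquitin ligase, and Tap1 (0.852), the peptide transporter of antigen presentation. For Ripk1, with a distance of 4.36 from a flat profile, they were Parp14 (0.512), a mono-ADP-ribosyltransferase, Socs3 (0.887), an inhibitor of cytokine receptors, and Gm15900 (0.915), which averaged 23.9 scaled counts in the IFNg libraries and 2.33 in the untreated libraries. Parp14 had 2409, 4798 and 5098 scaled counts in IFNg 6, 2 and 10, against 433, 329 and 187 in untreated 5, 1 and 9, the same order of libraries as Ripk1. In limma Dtx3l (adjusted p = 0.00377), Parp14 (0.00377) and Socs3 (0.00140) passed, while Csf1 (0.0584), Tap1 (0.0562) and Gm15900 (0.307) did not.

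The rest of the TNF and necroptosis machinery was described with 4 lists of 65 symbols, of which 64 were in the table and 61 were tested. In limma 0 of 61 were higher and 0 lower, with 13 at an unadjusted p under 0.05, where 9.22% of all tested genes were, and edgeR gave 0. DESeq2 called 3 higher, Tab3, Rnf31 and Pdcd6ip, and 0 lower. That count is near the 3.22% of all genes that DESeq2 called higher, and Pdcd6ip was named after its values were seen. In the GFP3 libraries alone 12 of 61 were higher, where 8.27% of all tested genes were. The median log2 change of the 61 genes was 0.32, against -0.08 over all tested genes. Like the members, these lists were chosen with earlier results of these data known.

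The ligands had 5 tested genes of 8 symbols, with a median log2 change of -0.16. Lta, the gene of lymphotoxin alpha, had 0.853, 5.78 and 11.4 scaled counts in IFNg 6, 2 and 10, against 25.3, 14.6 and 14.4 in untreated 5, 1 and 9. These are few reads (limma adjusted p = 0.641). Tnfsf15, which binds Tnfrsf25, had a log2 change of -0.84 ± 0.61 SE (limma adjusted p = 0.850). Tnf itself, named after its values were seen, averaged 239 ± 87.5 scaled counts in the IFNg libraries and 312 ± 242 in the untreated libraries (limma adjusted p = 0.965). Tnfsf10, the gene of TRAIL and likewise named after its values were seen, averaged 1707 ± 124 scaled counts in the IFNg libraries and 1310.1 ± 241 in the untreated libraries (limma adjusted p = 0.820).

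Other receptors of the family (12 of 13 tested) had a median log2 change of 0.73, with 8 above 0 and 3 at an unadjusted p under 0.05. Over all tested genes 6911 of 16095 were above 0 and 9.22% had such a p. Tnfrsf11b, the gene of osteoprotegerin, a soluble decoy that binds TRAIL and RANKL, had 2451, 5489 and 3009 scaled counts in IFNg 6, 2 and 10, against 442, 2408 and 1405 in untreated 5, 1 and 9. Those groups did not overlap, yet untreated 1 was nearly level with IFNg 6 (log2 1.58 ± 0.58 SE, limma adjusted p = 0.402). Tnfrsf21 (death receptor 6) had a log2 change of 1.21 ± 0.48 SE (limma adjusted p = 0.454, but 0.0128 in the GFP3 libraries alone).

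Complex I genes (25 of 25 tested), the ubiquitin ligases, deubiquitinases and kinases gathered at the receptor, had a median log2 change of -0.07, with 11 above 0. Over all tested genes 6911 of 16095 were above 0. Tab3, a subunit of the Tak1 kinase complex, had 1393, 1736 and 2481 scaled counts in IFNg 6, 2 and 10, against 575, 855 and 492 in untreated 5, 1 and 9. Its groups did not overlap (log2 1.54 ± 0.33 SE, limma adjusted p = 0.156, but 0.00141 in DESeq2). Rnf31, the catalytic subunit of the linear ubiquitin ligase that modifies Ripk1, had a log2 change of 1.09 ± 0.30 SE (limma adjusted p = 0.296, but 0.0222 in DESeq2 and 0.0302 in the GFP3 libraries alone).

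Necroptosis regulators (19 of 19 tested) had a median log2 change of 0.48, with 12 above 0 and 6 at an unadjusted p under 0.05. Over all tested genes 6911 of 16095 were above 0 and 9.22% had such a p. Peli1, a ubiquitin ligase that acts on Ripk1 and Ripk3, had 1738, 2228 and 7837 scaled counts in IFNg 6, 2 and 10, against 1862, 677 and 614 in untreated 5, 1 and 9. IFNg 10 stood far above the rest, and the groups overlapped (log2 1.76 ± 0.61 SE, limma adjusted p = 0.373). Pgam5, a mitochondrial phosphatase, had a log2 change of 1.37 ± 0.47 SE (limma adjusted p = 0.370, but 0.00467 in the GFP3 libraries alone). It was also the 1 gene of these lists that passed without untreated 5.

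**Figure D4:**
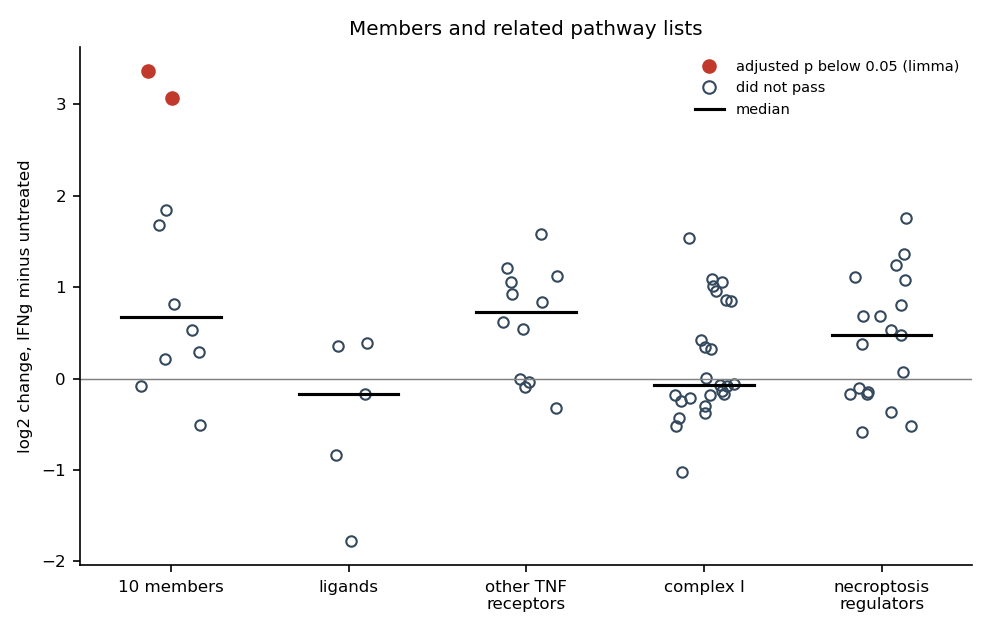
Log2 change (IFNg minus untreated) of the 10 genes and of the 61 tested genes in 4 related lists; each circle is a gene, filled where limma's adjusted p was below 0.05, and bars give the medians. The 2 filled circles are Ripk1 and Tnfrsf1a, and the medians of the lists lie between -0.16 and 0.73.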

How the data were processed

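The deposited values are a signal for each gene, namely read counts that the authors divided by 1 size factor per library. Without giving roles, the submitters' processing notes name HTSeq 0.5.3, DESeq 1.22.1, STAR 2.5.0a, cutadapt 1.6 and mm10. Whether counting used strand was not given in the sources used here, nor was its annotation. The cDNA kit (SMART-Seq v4, 2 ng of total RNA, per the labels' protocols) carries no molecular identifiers, so PCR copies cannot be told from molecules; the 95% intervals come from limma and cover the spread between these libraries only. The 4 rows naming no gene were left out of library sizes and tests (multiply aligned 18.5% to 25.0%, outside genes 9.67% to 14.2%, unaligned 8.83% to 15.4%, ambiguous 0.948% to 1.20% of all values). Dividing by the value of 1 read gave whole reads in 100% of 138762 cases (tolerance 0.01). The members and gene lists were chosen with earlier results of these data known.

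The main test was limma 3.58.1 (R 4.3.3), two-sided, trended and robust, on log2(scaled count + 1), which understates changes of low genes, for the 16095 genes that averaged 10 or more, adjusted by Benjamini-Hochberg. Folds are ratios of mean scaled counts. EdgeR 4.0.16 and DESeq2 1.42.0 on the recovered reads were alternatives, with 17 in all. The fit was tested on simulated data. All 10 members are named; of each related list, the 2 genes with the highest absolute log2 change and any that passed. Neighbouring end numbers (5 with 6, 1 with 2, 9 with 10) were treated as pairs on the basis of the data, since deviations from group means correlated at 0.302, 0.404 and 0.252 across genes; the labels do not state a pairing.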

Additional observations from a re-analysis of the deposited data

Results flagged for a closer look

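Cflar and Tradd had log2 changes of opposite sign under the title tags. Cflar changed by 0.16 on the log2 scale under GFP1 and by -0.20 under GFP3, where its IFNg and untreated libraries overlapped. The difference between the tags for Cflar was 0.36 ± 0.44 SE (GFP1 minus GFP3), smaller than its SE, so no tag difference was shown for it. Tradd was the 1 member that moved opposite ways under the tags without overlap between IFNg and untreated libraries under either tag. Its log2 change was -0.16 in the GFP1 pair, IFNg 6 against untreated 5, and 1.30 in the GFP3 libraries, where both IFNg libraries lay above both untreated libraries. The limma interaction term for Tradd was -1.46 ± 0.58 SE on the log2 scale (GFP1 minus GFP3), with an adjusted p of 0.326. Such opposite movement without overlap was seen for 25.4% of all tested genes, and each group held 1 GFP1 library.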

How the results depend on the processing

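Of 170 single-gene values under the alternatives, 153 kept their direction and their side of the threshold. The number of members higher, 2 in limma, was 4 in DESeq2, 4 with the title tag as a block and 4 in the GFP3 libraries alone, and 1 to 4 when 1 library was left out. It was 2 with the replicate block, though with Mlkl in place of Ripk1. Cflar changed sign without IFNg 6 (0.08), untreated 1 (0.01) or untreated 9 (0.11), with a range of -0.36 to 0.11 when 1 library was left out. Related genes higher, 0 in limma, numbered 3 in DESeq2, 12 in the GFP3 libraries alone and 0 to 1 with 1 library left out. Over all tested genes 67 were higher, against 457 in DESeq2, 108 with the tag block, 1331 in the GFP3 libraries alone and 40 to 366 with 1 library left out. The 2 lower genes became 1 with a pseudocount of 0.5, 1 with the filter raised to 50 scaled counts, 1 with the replicate block, 8 in DESeq2, 12 in the GFP3 libraries alone and 1 to 3 with 1 library left out. The replicate block changed no other member's call. The cause of these differences was not tested. The level order by principal transcript was added after the data were seen.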
